A study of Homo sapiens with 4 samples.

Results

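The DENND and TBC1D genes encode regulators of Rab GTPases and were read here in U937 cells, an established human line from a lymphoma with monocytic character. Members were all probe sets whose platform annotation gave a single gene symbol starting with DENND or TBC1D. These were 111 of the 54675 probe sets on the array, for 17 DENND and 34 TBC1D genes out of 19775 genes with such a probe set. The cells of 2 samples had received shikonin, a naphthoquinone from gromwell roots, at 100 nM with 3 h of incubation, and the cells of the other 2 had received the solvent dimethyl sulfoxide (DMSO), for which no time was stated. The labels do not state whether the 2 samples of a group were grown apart, and the p-values therefore reflect only how far these arrays scatter, which may be technical. In bulk RNA, fewer cells of a kind and less RNA per cell cannot be told apart.

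Rab proteins are small GTPases that mark membrane compartments and, when bound to GTP, recruit the motors, tethers and other effectors that move and fuse vesicles. Guanine nucleotide exchange factors with a DENN domain, the DENND proteins, load a Rab with GTP and so switch it on. Most proteins with a TBC domain, the TBC1D proteins, are GTPase-activating proteins that speed GTP hydrolysis and so switch a Rab off. In myeloid cells this cycle serves phagosome maturation, granule release, receptor recycling and autophagy.

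Each gene was represented by its brightest probe set, the one with the highest mean signal over the 4 arrays. That mean chose the probe set, so the brightness of the members is not a result. Signals are on the authors' linear scale and changes are differences of log2(signal + 9.94), positive where shikonin was higher. Differences were tested with limma over 32768 probe sets, two-sided, and a gene was called when its Benjamini-Hochberg adjusted p was under 0.05. The filter on dim probe sets left 15 DENND and 29 TBC1D genes. Not tested were DENND2A and DENND10, and among the TBC1D symbols TBC1D8B, TBC1D12, TBC1D28 and the antisense RNAs TBC1D8-AS1 and TBC1D22A-AS1; the signals of these 7 genes ran from 1.72 to 51.9 on single arrays. Of the TBC1D genes tested, TBC1D27P and TBC1D29P are pseudogenes.

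The arrays were alike in median signal, with 61.0 and 63.7 after shikonin and 60.5 and 62.2 in DMSO. Of 12 myeloid markers, 11 had a probe set of their own, and their summed signal was 88575 and 94647 after shikonin and 89773 and 96591 in DMSO. Of these, MPO was dim, at 40.8 to 99.8, and FCGR1A did not pass the filter. Of 15 markers of T, B, erythroid, epithelial and fibroblast cells, 13 had a probe set and 7 passed the filter, and the summed signal of the 13 was 929 and 857 after shikonin and 900.5 and 920.1 in DMSO. None of the tested markers on either list was called by limma (1 myeloid and 0 other markers had an unadjusted p under 0.05), and 2 arrays per group limit the precision of all values here.

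The exchange factors of the DENND family were mostly lower after shikonin. Of 15 DENND genes tested, 3 fell and none rose, while limma called 6.69% of all 13549 genes tested lower and 5.06% higher. At an unadjusted p under 0.05, 9 DENND genes differed, all of them lower after shikonin, where 14.7% of all genes were lower and 13.4% higher at this threshold. The called genes were DENND3, DENND5A and DENND4B, and 14 of the 15 log2 changes were below 0. Of these 14, DENND11 and DENND6B lay close to 0 (-0.018, SE 0.076, and -0.025, SE 0.22), and their groups overlapped. The other tested probe set of DENND6B lay at 0.49 without a call.

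DENND3, an exchange factor for RAB12, had signals of 1338 and 1337 after shikonin, against 2398 and 2577 in DMSO. Both shikonin arrays lay far below both DMSO arrays. The gene was 1.85-fold lower (log2 change -0.89, SE 0.074, limma adjusted p = 1.97e-04), and its other probe set fell as well, by 0.73 on the log2 scale (limma adjusted p = 0.00124). DENND5A, which acts on RAB39 and also binds RAB6, had 1393 and 1616 after shikonin and 2212 and 2174 in DMSO. The groups did not overlap, and the gene was 1.46-fold lower (log2 change -0.54, SE 0.086, limma adjusted p = 0.00536). DENND4B, of the subfamily that loads RAB10, had 1594 and 1566 after shikonin and 2193 and 2263 in DMSO. It was 1.41-fold lower (log2 change -0.49, SE 0.070, limma adjusted p = 0.00342), with replicates close together in each group. Leaving out any 1 of the 4 arrays kept the call of all 3 genes.

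The 12 DENND genes that were not called had log2 changes of -0.41 to 0.23. DENND2B, the furthest down among them, had 82.2 and 99.2 after shikonin and 118 and 128 in DMSO, a log2 change of -0.41 with an SE of 0.26. DENND1B, an exchange factor for RAB35, had 851 and 812 after shikonin and 1077 and 1005 in DMSO (log2 change -0.32, limma adjusted p = 0.0607). Its call depended on the probe set read: of its 3 other tested probe sets 1 fell, by 0.78 on the log2 scale (limma adjusted p = 0.0176), and the remaining ones lay at -0.97 and -0.12. DENND6A, which acts on RAB14, had 2890 and 2898 after shikonin and 3647 and 3187 in DMSO and was not called (log2 change -0.24, limma adjusted p = 0.0895), with -0.33 and a call without DMSO 2 (adjusted p = 0.0376) but -0.14 without DMSO 1 (0.381). DENND2D, of the subfamily that acts on RAB9, had 1625 and 2229 after shikonin and 2262 and 2360 in DMSO, so its shikonin arrays stood well apart from each other. Its log2 change was -0.28 (limma adjusted p = 0.218), and it rested on which shikonin array was read: -0.50 and called without shikonin 2 (adjusted p = 0.00982), but -0.051 without shikonin 1 (0.820).

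DENND1A and DENND1C, the other exchange factors for RAB35, had log2 changes of -0.24 and -0.31 (limma adjusted p = 0.181 and 0.198). DENND4A and DENND4C, relatives of DENND4B, stood at -0.24 and -0.25. Only DENND5B was above 0, at 0.23 with an SE of 0.44. Its signals were 67.5 and 37.4 after shikonin and 43.1 and 40.3 in DMSO, so the groups overlapped and 1 array set the direction.

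**Figure D1:**
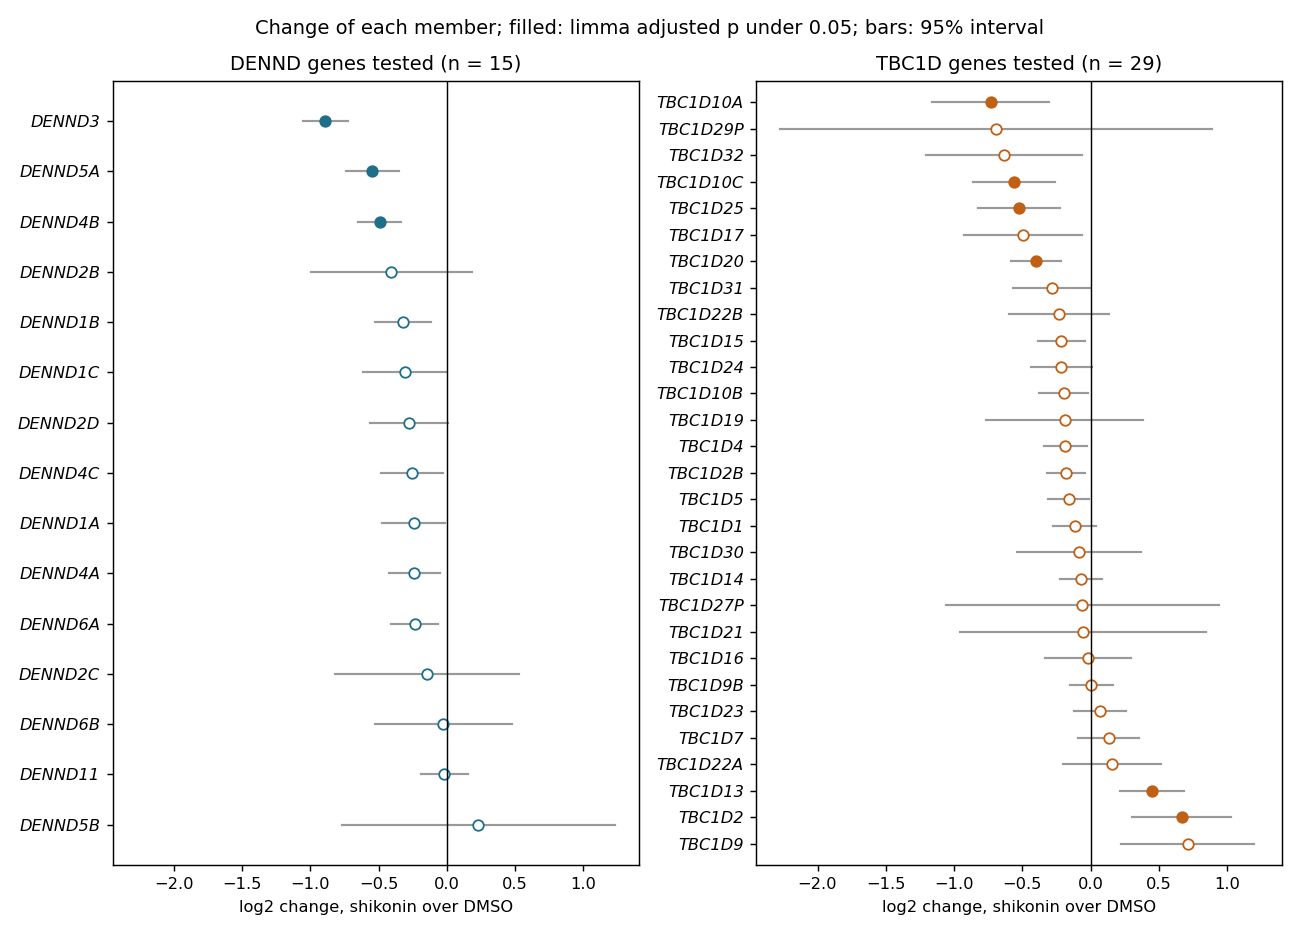
Log2 change, shikonin over DMSO, of the 15 DENND genes (left) and 29 TBC1D genes (right) tested, each on its brightest probe set, sorted within a family. Bars are 95% intervals of the limma fit and filled points are called genes; 14 DENND points and 22 TBC1D points lie below 0.

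The called TBC1D genes lay in both directions, and the share that rose was near that of all genes. Of 29 TBC1D genes tested, 4 fell and 2 rose, 13.8% and 6.90%, against 6.69% and 5.06% of all genes. The 4 that fell were TBC1D10A, TBC1D10C, TBC1D25 and TBC1D20, and the 2 that rose were TBC1D2 and TBC1D13. With the pseudogenes left out, the counts were 4 and 2 of 27. At an unadjusted p under 0.05, 12 TBC1D genes were lower and 3 higher, against 14.7% and 13.4% of all genes.

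TBC1D10A, a GTPase-activating protein for RAB27A and RAB35, had 172 and 225 after shikonin and 302 and 369 in DMSO. The groups did not overlap, and it was 1.66-fold lower (log2 change -0.73, SE 0.19, limma adjusted p = 0.0438). TBC1D10C, known as carabin, which acts on RAB35 and also inhibits Ras and calcineurin in lymphocytes, had 300.4 and 344 after shikonin and 475 and 482 in DMSO. It was 1.47-fold lower (log2 change -0.56, SE 0.13, limma adjusted p = 0.0311). TBC1D25, which binds the LC3 family on autophagosomes and acts on RAB33B, had 304 and 350.4 after shikonin and 468 and 480.4 in DMSO. It was 1.44-fold lower (log2 change -0.53, SE 0.13, limma adjusted p = 0.0411), and its dimmer probe set lay further down without passing (-1.07, adjusted p = 0.0519). TBC1D20, which acts on RAB1 and RAB18, had 1166 and 1266 after shikonin and 1592 and 1620 in DMSO and was 1.32-fold lower (log2 change -0.40, SE 0.081, limma adjusted p = 0.0165). Its other probe set stood at 0.04 and was not called.

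TBC1D2, known as Armus, which acts on RAB7, had 757 and 536 after shikonin and 404 and 391 in DMSO. Both shikonin arrays lay above both DMSO arrays but far from each other. It was 1.59-fold higher (log2 change 0.67, SE 0.16, limma adjusted p = 0.0330). TBC1D13, which acts on RAB35 in adipocytes, had 998 and 867 after shikonin and 679 and 676 in DMSO and was 1.37-fold higher (log2 change 0.45, SE 0.10, limma adjusted p = 0.0274). Its other probe set lay at 0.33 without passing (adjusted p = 0.171).

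None of these 6 genes kept its call in all 4 fits with 1 array left out. TBC1D10A, TBC1D10C, TBC1D25, TBC1D2 and TBC1D13 were not called without DMSO 1 (limma adjusted p = 0.0527, 0.0904, 0.106, 0.0624 and 0.0707 in this order), without DMSO 2 (0.184, 0.104, 0.132, 0.0775 and 0.0730) or without shikonin 1 (0.157, 0.123, 0.158, 0.157 and 0.144). TBC1D20 was not called without DMSO 2 (0.0603) or shikonin 1 (0.0796). The log2 changes of TBC1D10A, TBC1D10C, TBC1D25, TBC1D2 and TBC1D13 were -0.87, -0.57, -0.54, 0.69 and 0.45 without DMSO 1, each at least as large as with all arrays. They were -0.59, -0.55, -0.51, 0.65 and 0.45 without DMSO 2, and -0.55, -0.47, -0.43, 0.42 and 0.35 without shikonin 1. TBC1D20 stood at -0.39 without DMSO 2 and -0.34 without shikonin 1, and all 6 genes kept their direction in these fits, which have fewer arrays to estimate the spread.

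**Figure D2:**
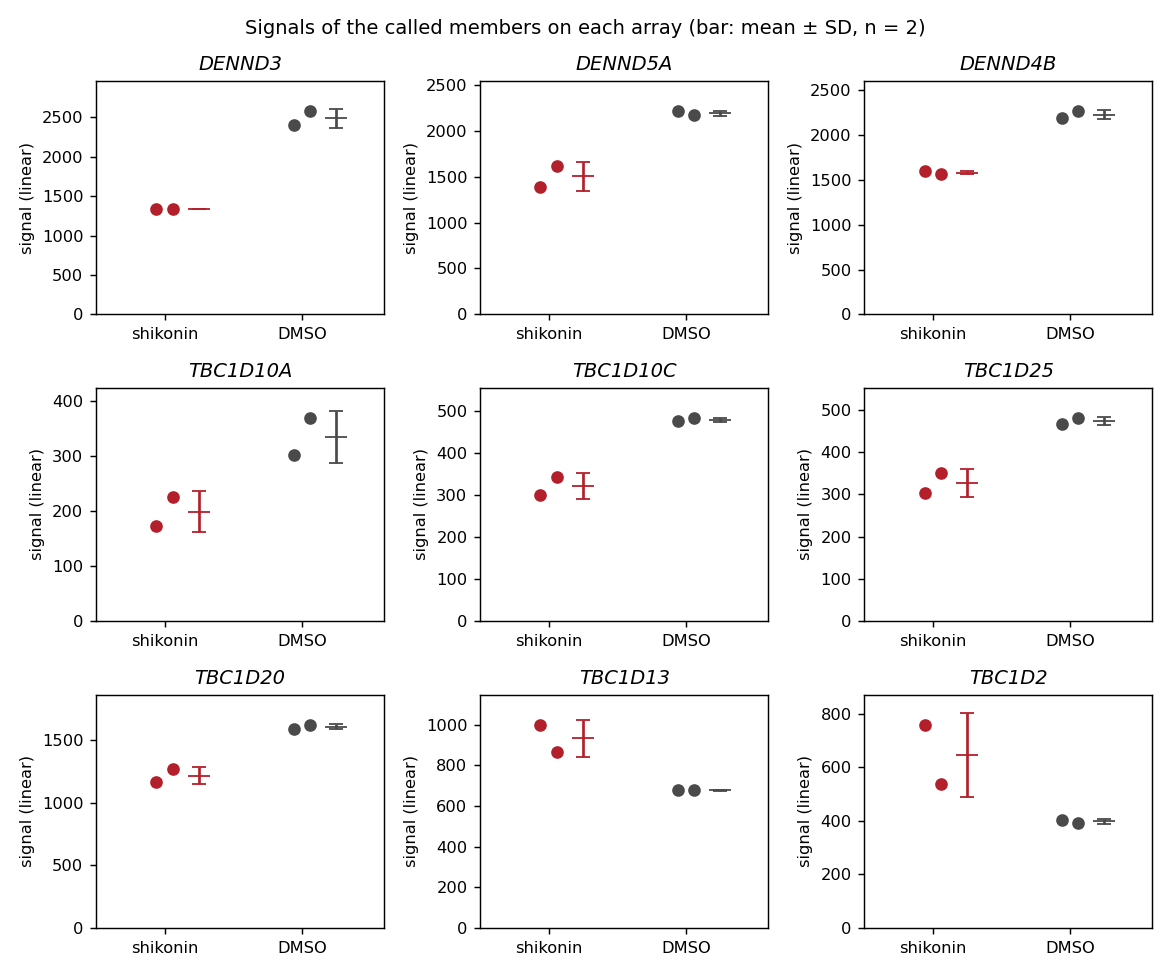
Linear signal of the 9 called members on each array, shikonin on the left and DMSO on the right of each panel, with mean ± SD (n = 2) beside the points. Each axis starts at 0; in every panel the groups do not overlap, and shikonin lies higher for TBC1D13 and TBC1D2.

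The 23 TBC1D genes that were not called had log2 changes of -0.69 to 0.71. TBC1D9, the furthest up, had 312 and 225 after shikonin and 177 and 141 in DMSO (log2 change 0.71, limma adjusted p = 0.0750). Its shikonin arrays were both higher than DMSO, and the change was 0.94 and called without shikonin 2 (adjusted p = 0.0472), but 0.48 without shikonin 1 (0.338) and 0.56 without DMSO 2 (0.225). TBC1D32, which is needed for cilia and Hedgehog signalling in mice, averaged 95.7 ± 8.55 after shikonin and 155 ± 31.4 in DMSO (SD, n = 2 each), without overlap (log2 change -0.63, limma adjusted p = 0.163). The pseudogene TBC1D29P stood at -0.69 with an SE of 0.70, on signals of 69.9 and 8.76 after shikonin and 76.4 and 35.1 in DMSO, which overlapped widely. TBC1D22A, next above 0 after TBC1D9, was at 0.16 with an SE of 0.16.

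Of the remaining members, TBC1D2B, TBC1D5 and TBC1D14 were named for their bright probe sets. TBC1D5, a GTPase-activating protein for RAB7 that binds retromer, had 2750 and 2987 after shikonin and 3220 and 3192 in DMSO (log2 change -0.16, limma adjusted p = 0.181). TBC1D2B, the relative of Armus, had 3279 and 3187 after shikonin and 3592 and 3728 in DMSO (-0.18, limma adjusted p = 0.110), which was a change opposite in sign to that of TBC1D2. TBC1D14, a regulator of RAB11 and autophagy, had 2847 and 2744 after shikonin and 3035 and 2826 in DMSO (-0.07), and its groups overlapped. TBC1D4, also known as AS160, and TBC1D1, which link insulin signalling to glucose transporter traffic in muscle and fat, stood at -0.19 and -0.12 and were not called. TBC1D7, the small subunit of the TSC complex, stood at 0.13, and TBC1D23, an adaptor at the trans-Golgi, at 0.07.

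Set side by side, the DENND genes had a median log2 change of -0.25 and the TBC1D genes one of -0.18, against 0.0033 over all genes tested. Of the DENND genes 14 of 15 (93.3%) were below 0, and of the TBC1D genes 22 of 29 (75.9%), against 49.5% of all genes. Both shikonin arrays lay below both DMSO arrays in 12 DENND and 14 TBC1D genes, and above them in 0 DENND and 3 TBC1D genes. Among all genes this held for 27.3% downward and 28.2% upward. Bright genes were called more often, and 11 of the DENND and 14 of the TBC1D genes were brighter than the median gene tested; above that median, 10.4% of genes were called lower and 8.74% higher. The difference between the families is a description of these 4 arrays and was not tested.

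The 2 arrays of each group gave similar family medians, while single members could differ between them. DENND2D, for example, lay at -0.37 and 0.09 on the shikonin arrays, relative to its mean over the 4 arrays. Relative to each gene's mean over the 4 arrays, the DENND median was -0.12 and -0.17 (log2) on the shikonin arrays and 0.11 and 0.17 on the DMSO arrays. The TBC1D median was -0.07 and -0.08 on the shikonin arrays and 0.10 and 0.04 on the DMSO arrays. Over all genes tested it was 0.0038 and 0.011 on the shikonin arrays and -0.0033 and 0.012 on the DMSO arrays. Because each gene is centred on its own mean, opposite signs of the groups follow once most changes share a direction. Without DMSO 1, DMSO 2, shikonin 1 or shikonin 2, the median change of the DENND genes was -0.31, -0.25, -0.29 and -0.24, and that of the TBC1D genes -0.15, -0.16, -0.18 and -0.16.

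**Figure D3:**
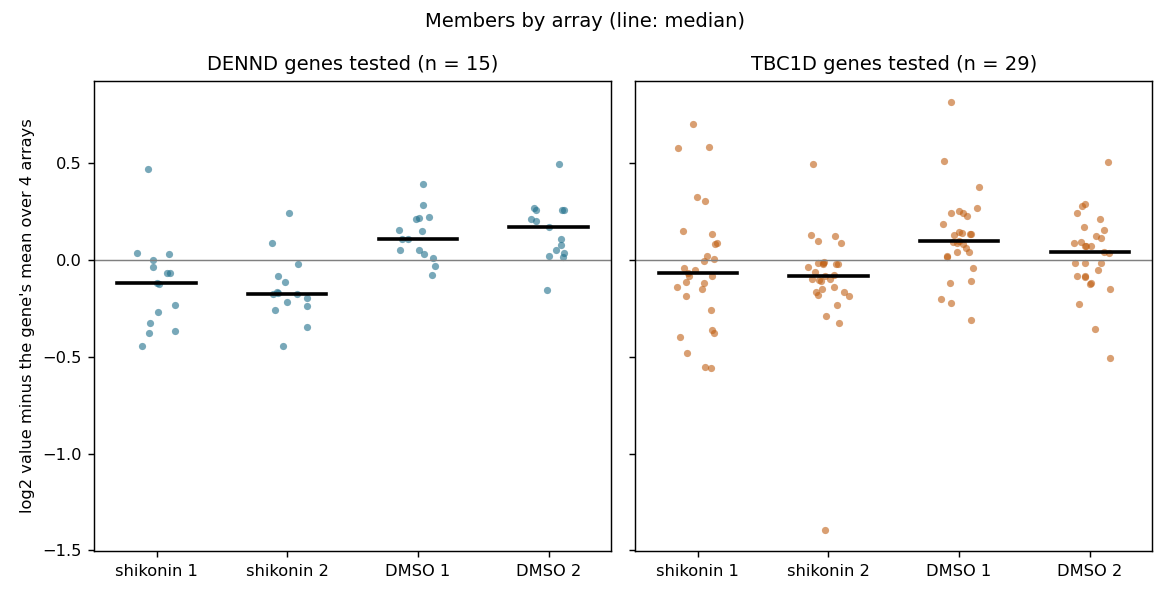
Log2 value of each tested member minus its own mean over the 4 arrays, by array, for 15 DENND (left) and 29 TBC1D genes (right); the black line is the median. The DENND medians are -0.12 and -0.17 on the shikonin arrays and 0.11 and 0.17 on the DMSO arrays.

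Probe sets of the same gene showed where a direction held within a gene. Over all 27 DENND probe sets tested, 5 fell and none rose, 24 of them below 0, where limma called 6.01% of all single-symbol probe sets lower and 3.94% higher (5.28% and 3.92% of all probe sets tested). Over 57 TBC1D probe sets, 4 fell and 2 rose, shares near those of all single-symbol probe sets, and 36 were below 0. The share below 0 over all probe sets was not counted. Of 8 DENND genes with several tested probe sets, 6 had the same sign on all of them, and the exceptions were DENND4C and DENND6B. Of 17 such TBC1D genes, 10 had the same sign, and the exceptions were TBC1D1, TBC1D16, TBC1D20, TBC1D22A, TBC1D22B, TBC1D30 and TBC1D31. How often signs matched over all genes with several tested probe sets was not counted. The widest disagreement was in TBC1D30, a GTPase-activating protein for RAB8, whose 3 probe sets ran from -1.30 to 0.32, none of them called. Probe sets of 1 gene can read different transcript ends, and which transcripts these read was not examined.

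**Figure D4:**
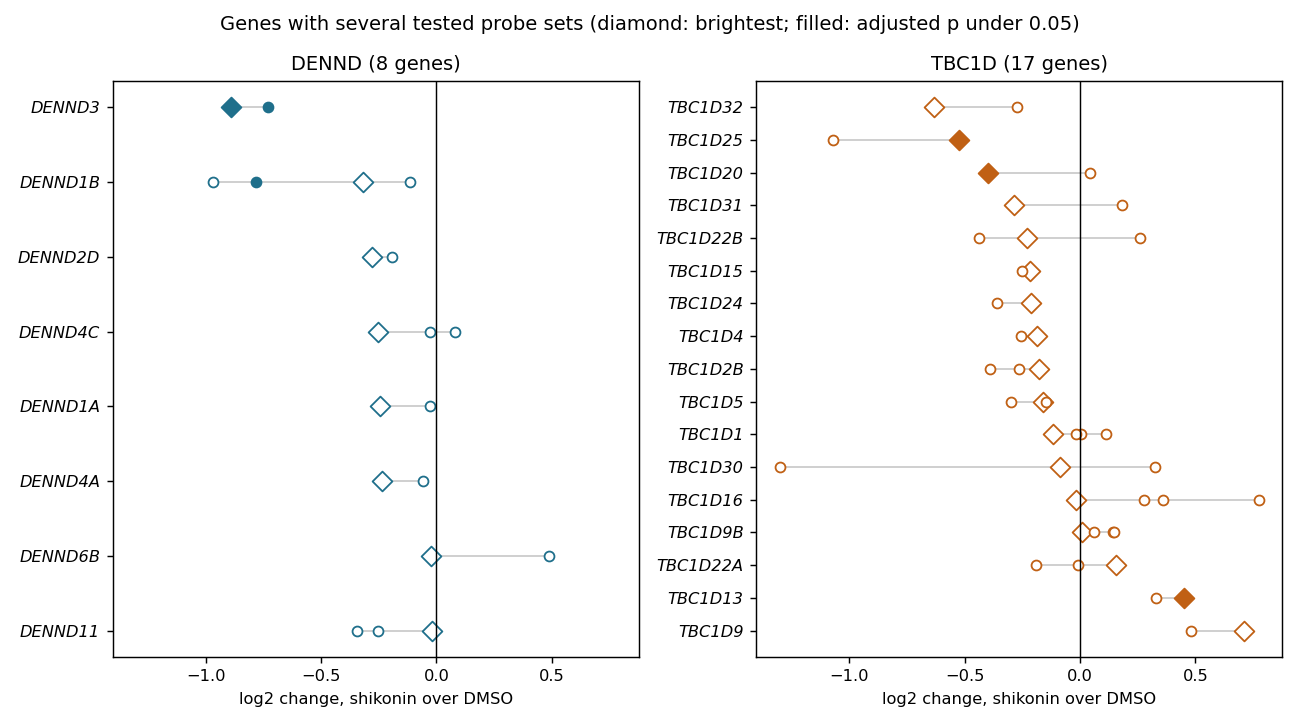
Log2 change, shikonin over DMSO, of every tested probe set of the 8 DENND and 17 TBC1D genes with more than 1 of them. Diamonds mark the brightest probe set and filled symbols an adjusted p under 0.05; the TBC1D30 probe sets run from -1.30 to 0.32.

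RAB35 had regulators on both sides among the members. Its 3 exchange factors, DENND1A, DENND1B and DENND1C, lay at -0.24, -0.32 and -0.31 without a call, while among its GTPase-activating proteins TBC1D10A and TBC1D10C fell, TBC1D13 rose and TBC1D10B lay at -0.20 without a call. RAB35 itself, chosen after its values were seen like the Rab genes in the next sentences, had 719 and 995 after shikonin and 1081 and 1087 in DMSO (log2 change -0.35, limma adjusted p = 0.153). Its change was -0.59 and called without shikonin 2 (limma adjusted p = 0.0128), but -0.12 without shikonin 1 (0.601). RAB12, the substrate of DENND3, stood at -0.35 (limma adjusted p = 0.240), on an _x_at probe set that can cross-hybridize; without such probe sets it stood at 0.24. RAB33B, the substrate of TBC1D25, stood at -0.55 (limma adjusted p = 0.0525), RAB1B, a substrate of TBC1D20, at 0.39 (0.0586; 0.52 and called without DMSO 2, adjusted p = 0.0248, but 0.25 without DMSO 1, 0.243) and RAB39A, of the pair that DENND5A acts on, at 0.63 (0.215).

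The TBC1D regulators of RAB7, the Rab of late endosomes and lysosomes, and their relatives also differed in sign. TBC1D2 rose, while TBC1D5 and TBC1D15 stood at -0.16 and -0.21 without a call. TBC1D2B, a relative of TBC1D2, stood at -0.18 without a call, and TBC1D17, a relative of TBC1D15, at -0.50 (limma adjusted p = 0.151). RAB7A itself stood at 0.10 (limma adjusted p = 0.320).

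Other genes of the Rab cycle were counted from lists chosen by their textbook roles. The shares of all genes beside which these counts stand are 6.69% called lower, 5.06% called higher and 28.0% with an unadjusted p under 0.05 in either direction. Of 11 further DENN-domain proteins and relatives, 2 fell (18.2%) and 1 rose (9.09%), with a median log2 change of -0.17. At an unadjusted p under 0.05 there were 4 (36.4%). SBF2, a pseudophosphatase with a DENN domain, had 148 and 121 after shikonin and 233 and 278 in DMSO and fell (log2 change -0.88, limma adjusted p = 0.0285). AVL9, a DENN relative in late secretion, fell by 0.27 on the log2 scale (limma adjusted p = 0.0450). SMCR8, the partner of C9orf72 in autophagy, rose, with 2663 and 2676 after shikonin and 1864 and 1705 in DMSO (0.58, limma adjusted p = 0.00178). The calls of SBF2 and AVL9 were lost without any 1 of the arrays except that of SBF2 without shikonin 1 (adjusted p = 0.0508, 0.139 and 0.0923 for SBF2 without DMSO 1, DMSO 2 and shikonin 2, and 0.0502 to 0.195 for AVL9).

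Of 29 exchange factors of other kinds, 5 fell (17.2%, against 6.69% of all genes) and none rose, with a median of 0.02. At an unadjusted p under 0.05 there were 6 (20.7%, against 28.0% of all genes). HPS4, a subunit of the exchange factor for RAB32 and RAB38, had 475 and 446 after shikonin and 886 and 837 in DMSO (log2 change -0.89, limma adjusted p = 0.00125). ANKRD27, an exchange factor for RAB21, fell by 0.40 on the log2 scale, and RIN3, an exchange factor of the RAB5 subfamily, fell by 0.72. Of 12 other TBC-domain proteins and GTPase-activating proteins, 1 fell (8.33%, near the 6.69% of all genes) and none rose, with a median of -0.04, and 2 (16.7%, against 28.0%) had an unadjusted p under 0.05. The gene that fell was RABGAP1 (-0.44, limma adjusted p = 0.0326), a relative of the TBC1D proteins, and it was not called without DMSO 1, DMSO 2 or shikonin 2 (adjusted p = 0.0852, 0.0963 and 0.145).

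Of 52 Rab GTPases tested, 7 fell (13.5%, against 6.69% of all genes) and 2 rose (3.85%, against 5.06%), with a median of -0.02. At an unadjusted p under 0.05 there were 18 (34.6%, against 28.0% of all genes). RAB33A, a Rab of immune and nerve cells, had 1424 and 1518 after shikonin and 2905 and 3010 in DMSO, 2.01-fold lower (limma adjusted p = 8.82e-05). RAB5B, an early endosomal Rab, fell by 0.74 and RAB28 by 0.48 on the log2 scale. RAB7B and RAB4B rose, by 0.55 and 1.17; both lost the call without DMSO 1 (adjusted p = 0.105 and 0.103) or shikonin 2 (0.102 and 0.219), RAB7B also without shikonin 1 (0.0709) and RAB4B also without DMSO 2 (0.0510). Of 37 Rab effectors tested, 5 fell (13.5%) and 2 rose (5.41%), with a median of -0.05, and 11 (29.7%, near the 28.0%) had an unadjusted p under 0.05. RAB11FIP1, which links RAB11 to recycling endosomes, had 659 and 521 after shikonin and 1236 and 1229 in DMSO (-1.06, limma adjusted p = 9.85e-04), and MYO5A, a motor for granules and melanosomes, rose, with 1114 and 1050.5 after shikonin and 629 and 677 in DMSO (0.72, limma adjusted p = 0.00227). PLEKHM2 and RAB11FIP2 also fell, by 0.69 and 0.41 on the log2 scale (limma adjusted p = 0.0133 and 0.0218). RABEP2 rose by 0.40 (limma adjusted p = 0.0289), but its log2 change was 0.34 without DMSO 1, where the call was lost. Of the proteins that deliver Rabs to membranes and prenylate them, 5 were tested and limma called none, with 1 (20%, against 28.0% of all genes) at an unadjusted p under 0.05.

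**Figure D5:**
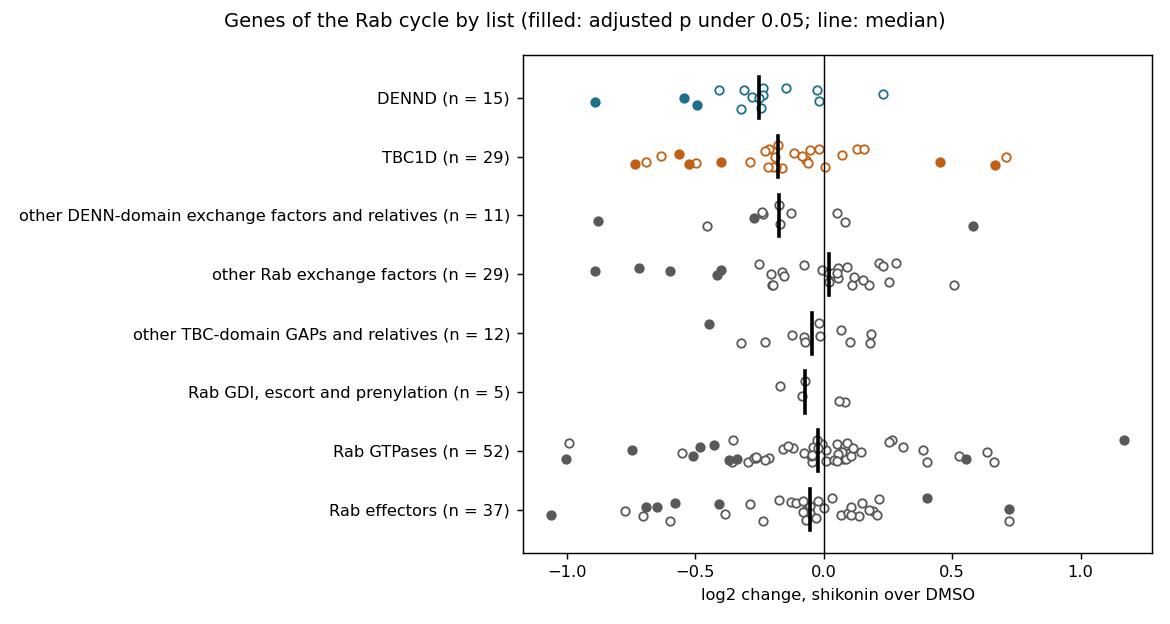
Log2 change, shikonin over DMSO, of each tested gene of the 2 families and of 6 further lists of the Rab cycle; filled points are called and the black line is the median of a list. The medians are -0.25 for DENND, -0.18 for TBC1D and -0.02 for the 52 Rab GTPases.

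The 250 bases before an annotated transcription start are shown for 7 of the 9 called members, since these genes moved in different directions and their promoters can be read side by side. DENND3 is not shown, and TBC1D10C had no window. The sequences are from RefSeq (GRCh38.p14), 5′ to 3′ on the gene's strand, at the first start listed for each gene. Of the 51 genes, 41 had such a window, 62 windows in all. Capitals mark matches to 6 motifs searched on both strands: the core of the antioxidant response element bound by NRF2 (TGACNNNGC), a pair of heat shock units (GAANNTTC), an EGR site (GCGNGGGCG), the E-box of the CLEAR type bound by TFEB and relatives (CACGTG), the cAMP response element (TGACGTCA) and an ETS site (CCGGAAG). DENND4B, DENND5A, TBC1D10A, TBC1D20 and TBC1D25 fell, and TBC1D13 and TBC1D2 rose.
DENND4B (chr1:153946719-153946968, minus strand): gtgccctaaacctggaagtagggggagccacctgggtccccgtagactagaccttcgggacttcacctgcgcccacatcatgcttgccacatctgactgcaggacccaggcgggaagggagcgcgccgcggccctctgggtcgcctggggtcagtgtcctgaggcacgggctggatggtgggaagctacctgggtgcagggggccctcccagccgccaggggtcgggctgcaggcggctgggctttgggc
DENND5A (chr11:9265327-9265576, minus strand): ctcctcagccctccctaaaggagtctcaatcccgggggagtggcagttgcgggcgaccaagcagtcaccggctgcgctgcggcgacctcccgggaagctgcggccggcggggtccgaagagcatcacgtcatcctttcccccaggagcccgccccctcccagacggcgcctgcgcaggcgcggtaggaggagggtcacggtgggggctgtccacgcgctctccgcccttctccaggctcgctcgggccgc
TBC1D10A (chr22:30326942-30327191, minus strand): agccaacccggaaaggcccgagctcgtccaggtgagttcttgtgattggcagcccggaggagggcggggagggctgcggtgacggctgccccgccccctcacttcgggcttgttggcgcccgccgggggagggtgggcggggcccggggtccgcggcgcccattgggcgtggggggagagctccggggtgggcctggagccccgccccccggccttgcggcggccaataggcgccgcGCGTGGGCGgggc
TBC1D20 (chr20:462534-462783, minus strand): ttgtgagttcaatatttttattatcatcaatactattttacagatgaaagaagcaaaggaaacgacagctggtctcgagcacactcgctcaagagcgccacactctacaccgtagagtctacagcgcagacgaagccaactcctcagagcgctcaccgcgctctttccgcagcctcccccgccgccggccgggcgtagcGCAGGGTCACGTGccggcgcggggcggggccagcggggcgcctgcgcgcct
TBC1D25 (chrX:48539464-48539713, plus strand): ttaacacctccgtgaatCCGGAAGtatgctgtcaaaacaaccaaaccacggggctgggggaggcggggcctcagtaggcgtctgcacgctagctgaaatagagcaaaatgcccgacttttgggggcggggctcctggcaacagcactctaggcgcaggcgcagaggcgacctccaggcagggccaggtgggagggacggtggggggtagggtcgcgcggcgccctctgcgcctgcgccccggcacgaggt
TBC1D13 (chr9:128787003-128787252, plus strand): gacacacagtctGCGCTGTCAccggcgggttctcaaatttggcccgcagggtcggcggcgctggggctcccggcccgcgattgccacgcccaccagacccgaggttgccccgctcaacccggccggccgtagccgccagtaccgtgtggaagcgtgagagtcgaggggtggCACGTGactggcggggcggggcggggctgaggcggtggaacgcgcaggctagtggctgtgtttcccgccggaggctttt
TBC1D2 (chr9:98255650-98255899, minus strand): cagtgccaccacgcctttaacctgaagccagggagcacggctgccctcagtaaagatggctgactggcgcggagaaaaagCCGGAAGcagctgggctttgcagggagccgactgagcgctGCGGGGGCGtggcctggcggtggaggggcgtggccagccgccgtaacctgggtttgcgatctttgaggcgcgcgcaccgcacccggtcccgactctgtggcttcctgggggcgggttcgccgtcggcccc

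The windows of DENND4B and DENND5A held none of these letters. TBC1D20 and TBC1D13, which moved in opposite directions, both held an antioxidant core and an E-box; in TBC1D20 the 2 matches overlap. An EGR match stood in TBC1D10A, which fell, and in TBC1D2, which rose, and an ETS match in TBC1D25, which fell, and again in TBC1D2. Over all member windows, the E-box was in 9 of 62 (14.5%), against 6.34% of all 35116 windows of the same length, the EGR site in 17.7% against 8.41%, the antioxidant core in 16.1% against 10.9%, the heat shock pair in 8.06% against 5.78%, the ETS site in 9.68% against 8.52% and the cAMP element in 1.61% against 1.65%. Windows of 1 gene can overlap. A match describes letters and is not a bound site.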

How the data were processed

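RNA of all 4 samples was read on Affymetrix U133 Plus arrays after biotin labelling, per the labels' protocols. The authors deposited 1 linear intensity per probe set and array, and no source used here names the summarising software. After trimming 2% at each end, the mean signal was 500.1 on each array, so the array total was set equal and changes are relative. Depth does not apply; 2 arrays per group limit precision. Gene symbols came from the platform annotation, and all 51 member symbols matched RefSeq by gene identifier. The pseudocount of 9.94 is the 20th percentile of all values. Control probe sets and the 40% with the lowest mean log2 value were left out, which kept 32768. Limma 3.58.1 in R 4.3.3 (variance trend on signal) gave all p-values. The fit was tested on simulated data: with 32768 probe sets fitted for shikonin against DMSO, 50.0% of 100 probe sets with a simulated log2 change of 0.5 and 80.0% of 100 with a change of 1 were called. Named genes were the called members, the 3 brightest and the 2 furthest in each direction among the uncalled members of each family, and up to 3 called genes per direction in each Rab list. Further members and substrate Rabs were named by role after their values were seen. The members, lists and rules were chosen with earlier results of these data known. Set tests were not run.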

Additional observations from a re-analysis of the deposited data

How the results depend on the processing

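DENND3, DENND4B and DENND5A kept their direction under all 13 alternatives and their call under 12 of them, the exception being a single variance prior. With that prior limma called 0 DENND genes lower, 0 TBC1D genes lower, 0 TBC1D genes higher and 0 of all genes in either direction; 1035 of all genes higher and 1381 lower, 5 DENND and 5 TBC1D genes lower and 3 TBC1D genes higher had an unadjusted p under 0.05. The TBC1D calls moved more. Without a filter on dim probe sets 0 were higher and 1 lower (median -0.14), beside 350 higher and 609 lower of all genes. Under quantile normalization 1 was lower (849 of all genes), and with gene means 1 was higher (580 of all genes). Without _x_at and _s_at probe sets 1 was higher (448 of all genes). Leaving out 1 array gave 0 to 3 TBC1D genes higher and 0 to 4 lower, a DENND median of -0.31 to -0.24, and 303 to 446 of all genes higher and 594 to 681 lower. With the replicate number as a block, 6 DENND genes were lower and 1238 of all genes higher. Lower calls grew over the whole array as well, with 2606 of 32768 probe sets tested against 1729 in the main fit. Same-numbered arrays share only a number (correlation of deviations 0.022). Among the genes named by rule and the substrate Rabs, leaving out shikonin 1 turned the sign of DENND5B (-0.12 to 0.59) and TBC1D22A (-0.070 to 0.39). Leaving out shikonin 2 turned that of TBC1D29P (-1.74 to 0.36). Among the same genes, signs also turned for TBC1D22A (-0.014) with gene means, and RAB12 (0.24) and RAB7A (-0.081) without _x_at and _s_at probe sets. None of these was called. Further members changed sign as well. Of 15 DENND genes, 13 were below 0 without DMSO 2 and under quantile normalization, against 14 with the main setting. Of 29 TBC1D genes, 19 were below 0 without DMSO 1, against 22. Causes were not tested.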

Other observations

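Probe sets with several symbols were no members. All 3 that DENND10 shares with its pseudogene DENND10P1 lay lower after shikonin, with both shikonin arrays below both DMSO arrays. The brightest had 2979 and 3032 after shikonin and 3734 and 3968 in DMSO (log2 change -0.36, limma adjusted p = 0.00967), and the other log2 changes were -0.43 (adjusted p = 0.0459) and -0.34 (0.0716). The gene and the pseudogene cannot be told apart on them. The probe set shared by the TBC1D3 copies, a gene cluster of higher primates, had 341 and 404 after shikonin and 322 and 452 in DMSO, and its groups overlapped.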
